A study of Mus musculus with 15 samples.

Results

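The genes described here encode the nuclear pore complex and the machinery that carries proteins and RNA through it. They were taken by symbol from a table of FPKM (fragments per kilobase of transcript, scaled to the mapped fragments of the library) in mouse embryos. A gene was included when its symbol began with Nup, Kpna, Kpnb, Ipo or Xpo, or when it was Ran, Rcc1, Rangap1, Ranbp1, Ranbp2, Tnpo1, Tnpo2, Tnpo3, Cse1l, Nxf1, Nxt1, Tpr, Aaas or Seh1l. This rule, which used no measured value, found 57 of the 14392 genes of the table. Of these, 56 are named for a part of the pore or of nuclear transport, and Nupr1, a stress-induced regulator of transcription, matched by its first letters alone. RNA-seq was available for 8 libraries, with 2 per genotype (WT and cKO) at each of 2 stages (zygote and 2-cell), and each library pooled 10 embryos. WT embryos came from Usp16+/+ females, and cKO embryos from Usp16 fl/fl;Gdf9-Cre females, in which the oocyte-active Gdf9 promoter drives Cre recombinase. All females were on the C57BL/6 background, were superovulated at about 3 weeks of age and were mated with WT males, so the cKO embryos lacked the maternal USP16 (a deubiquitinase of histone H2A) but inherited an intact paternal allele. The study asked what the loss of this maternal enzyme does to the RNA of early embryos, and the design gives 3 comparisons for the pore and transport genes, namely 2-cell against zygote in WT, cKO against WT in zygotes, and cKO against WT at the 2-cell stage.

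The nuclear pore is built from nucleoporins. Y-shaped complexes form its outer rings, an inner ring lines the membrane, and proteins rich in phenylalanine and glycine fill the channel, while filaments face the cytoplasm and a basket faces the nucleus. Importins bind cargo in the cytoplasm and release it in the nucleus upon binding RanGTP, whereas exportins bind cargo together with RanGTP and release it in the cytoplasm, where RANGAP1 and RANBP1 drive the hydrolysis of GTP and chromatin-bound RCC1 recharges Ran in the nucleus. A zygote starts from the maternal stock of these RNAs and proteins, builds pronuclear envelopes after fertilization and begins major transcription of its own genome at the 2-cell stage in the mouse.

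The table gives FPKM and no read counts, so sequencing depth is unknown. By the study's methods, genes under 1 FPKM in every sample were left out, and remaining values under 1 were set to 1. No value in the table was below this floor. The sum of FPKM was 770989 in cKO 2-cell replicate 2 and 547752 to 593317 in the others. Genes at the floor numbered 4242 to 4747 in the zygote libraries, but 1642 and 1716 in those of WT and 3684 and 4240 in those of cKO at the 2-cell stage. Usp16 was at 184 and 187 FPKM in WT zygotes and at 16.8 and 22.0 in cKO zygotes, but at 168 and 84.8 in cKO 2-cell embryos against 168 and 183 in WT 2-cell embryos. Since the paternal allele can give Usp16 RNA at the 2-cell stage, these values do not check the genotype of the cKO 2-cell libraries. All 14 oocyte and early embryo markers were present, with summed levels of 23808 to 26575 FPKM in zygotes and, at the 2-cell stage, 9087 to 11290 in WT and 7368 to 12075 in cKO. These sums hide opposite differences of single markers between genotypes at the 2-cell stage. Dppa3 was at 5888 and 8774 FPKM in cKO against 2958 and 2472 in WT. In contrast, Btg4 was at 208 and 483 in cKO against 2058 and 1457 in WT, and Bmp15 at 79.7 and 67.5 against 531 and 536. Of 15 cumulus and granulosa cell markers, 4 were in the table, with summed levels of 21.1 to 43.0 over all libraries. The corresponding ranges were 4.00 to 23.1 for 4 of 6 sperm markers and 9.49 to 38.2 for 5 of 8 oviduct and blood cell markers. Pooled embryos give bulk RNA, in which fewer cells and less RNA per cell cannot be told apart, and FPKM is relative to the total of its own library. The labels do not say whether replicates came from separate collections, so p-values measure the spread between these libraries.

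The pore and transport genes took a near constant share of the RNA. They summed to 0.484 to 0.538% of all FPKM in 7 libraries and to 0.805% in cKO 2-cell replicate 1. Their median FPKM was 13.1 to 15.8 in zygotes and, at the 2-cell stage, 25.6 and 22.6 in WT against 27.7 and 20.8 in cKO. Every one of the 57 genes was above the floor in all 4 of the 2-cell libraries, whereas 6 or 7 were at the floor in each zygote library. Kpna1, Kpna4, Xpot, Nup62cl, Nup210l and Nupr1 were at the floor in every zygote library. By the study's filter they are in the table only through their 2-cell values, so any change from the zygote could only be a rise. On the per-length FPKM scale, Kpna2, an importin alpha that links nuclear localization signals to importin beta, had the highest mean level in each of the 4 groups, at 537 (WT) and 582 (cKO) in zygotes and 689 (WT) and 1116 (cKO) at the 2-cell stage. In WT zygotes it was followed by the Y-complex gene Nup37 at 381, the inner ring gene Nup35 at 249, the cytoplasmic-side gene Nup88 at 189 and the import receptor gene Ipo8 at 157. The top place was not firm in zygotes, since Nup37 was above Kpna2 in replicate 2 of WT (404.1 against 396.6) and of cKO (499.4 against 499.0), and the libraries of Nup88 and Ipo8 overlapped in WT (214.5 and 163.5 against 147.9 and 165.5). In WT 2-cell embryos the order had changed, and Kpna2 was followed by the mRNA export receptor gene Nxt1 at 203 and Ran at 159. Next came the Y-complex gene Nup43 at 140 and the importin alpha gene Kpna1 at 123. The neighbours Nup43 and Ran in this order had overlapping libraries, at 147.2 and 133.5 against 173.5 and 144.2.

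**Figure D1:**
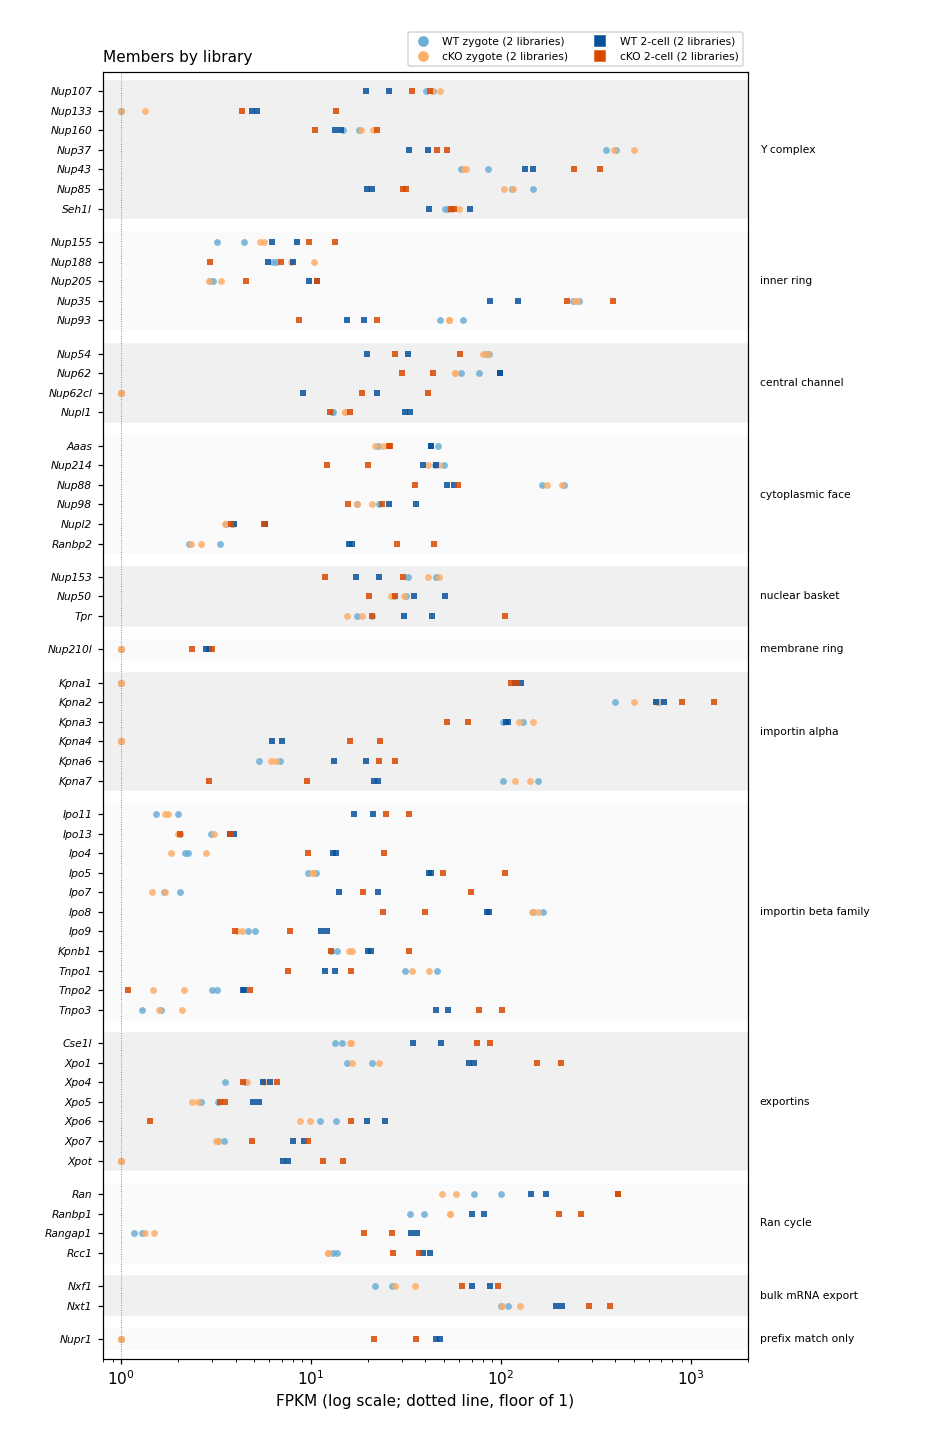
FPKM (log scale) of the 57 pore and transport genes in the 8 libraries, grouped by role, with circles for zygotes and squares for 2-cell embryos, blue for WT and orange for cKO, and a dotted line at the floor of 1. Kpna1 and Tnpo3 lie near the floor in zygotes and far above it in 2-cell embryos, Nup37 and Kpna7 lie highest in zygotes, and the squares of cKO 2-cell embryos lie far apart for Xpo6 and Tpr.

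Some of these values carry reads that cannot be placed with certainty. When the transcripts of the 57 genes were aligned to the mm9 genome, 5 genes had a further copy with at least 50% of the transcript covered at 95% identity or more, namely Kpna2 with 4 copies, and Nup35, Nup54, Ran and Xpot with 1 each. The Ran copy covered 89.5% of the transcript at 98.6% identity. The exons of 15 genes overlapped those of another annotated gene, in 11 cases on the opposite strand, and Smart-seq2 does not mark the strand. The pairs included Ranbp1 with Trmt2a, Kpna7 with Arpc1a, Nup88 with Rabep1, Nup214 with Fam78a, Tnpo3 with Irf5, Nup62 with Atf5 and Il4i1, Nup35 with Dusp19, and Rcc1 with Snhg3. Levels of all these genes are uncertain to that extent.

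The start sites of 5 genes are shown. In the test described below, Ran, Ranbp1 and Kpna4 were called higher and Kpna7 and Nupl1 lower in cKO 2-cell embryos. The calls of Kpna7 and Nupl1 were lost after median-ratio scaling, and none of the 5 held when each group had its own spread. Ipo8, Nup214 and Nup62, the lower genes called under both scalings, are not shown. Each sequence shown is the reference for the 250 bases before the annotated start, written 5′ to 3′ on the gene's strand, from RefSeq on GRCm38.p6. The windows are chr5:129019906-129020155 on the plus strand for Ran, and, on the minus strand, chr16:18248695-18248944 for Ranbp1, chr3:69127093-69127342 for Kpna4, chr5:145009637-145009886 for Kpna7 and chr14:60251480-60251729 for Nupl1. On mm9, the build of the expression data, the genes themselves span chr5:129525944-129530198, chr16:18239877-18248825, chr3:68871071-68931035, chr5:145744388-145844899 and chr14:60824707-60870344 in the same order. Capitals mark matches to 6 short motifs on either strand, namely the CCAAT box (CCAAT), the GC box (GGGCGG), the E-box (CACGTG), the TATA box (TATAAA), a core of ETS sites (CCGGAAG) and a core of NRF1 sites (GCGCATGCG).
Ran: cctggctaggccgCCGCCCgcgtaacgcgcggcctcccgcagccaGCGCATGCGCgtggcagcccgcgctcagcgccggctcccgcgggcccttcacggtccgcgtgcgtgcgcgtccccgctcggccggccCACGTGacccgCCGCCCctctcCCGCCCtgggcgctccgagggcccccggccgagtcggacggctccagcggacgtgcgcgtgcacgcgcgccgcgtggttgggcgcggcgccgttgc
Ranbp1: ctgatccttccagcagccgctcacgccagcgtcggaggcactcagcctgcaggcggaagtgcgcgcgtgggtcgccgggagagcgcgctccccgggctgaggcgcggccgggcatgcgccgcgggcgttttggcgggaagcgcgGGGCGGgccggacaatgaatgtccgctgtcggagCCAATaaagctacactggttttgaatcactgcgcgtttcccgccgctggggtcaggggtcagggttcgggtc
Kpna4: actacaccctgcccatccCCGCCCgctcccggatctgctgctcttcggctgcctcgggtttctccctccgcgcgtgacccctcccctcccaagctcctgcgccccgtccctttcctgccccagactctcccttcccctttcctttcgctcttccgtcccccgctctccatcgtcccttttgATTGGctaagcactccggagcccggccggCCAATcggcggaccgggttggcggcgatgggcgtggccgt
Kpna7: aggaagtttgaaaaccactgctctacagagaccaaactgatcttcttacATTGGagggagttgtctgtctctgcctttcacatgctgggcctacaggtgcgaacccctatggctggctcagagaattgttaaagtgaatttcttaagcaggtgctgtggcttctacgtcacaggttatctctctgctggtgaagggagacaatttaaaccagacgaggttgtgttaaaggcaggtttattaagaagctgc
Nupl1: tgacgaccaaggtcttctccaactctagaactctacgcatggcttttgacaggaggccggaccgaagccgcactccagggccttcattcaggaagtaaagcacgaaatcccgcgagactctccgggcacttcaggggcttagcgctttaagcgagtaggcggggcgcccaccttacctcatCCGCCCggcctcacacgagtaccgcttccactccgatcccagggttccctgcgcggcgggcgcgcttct
The Ran window held the NRF1 core on both strands at the same place, since the motif is a near palindrome, together with 3 GC boxes and an E-box. The windows of Ranbp1 and Kpna4 each held CCAAT and GC boxes, that of Kpna7 a CCAAT box without a GC box, and that of Nupl1 a GC box. Of the 57 genes, 46 had a window, and a gene with several start sites counted as holding a motif when any of its windows did. CCAAT was found for 23 of the 46 genes (50.0%), beside 33.8% of all 32851 single windows and 36.2% of the 12745 windows of genes in the table. The GC box was found for 31 (67.4%), beside 32.7% of all windows and 53.0% of those of genes in the table. The E-box was found for 9 (19.6%), beside 6.02% and 8.03%, the ETS core for 7 (15.2%), beside 6.91% and 12.2%, and the NRF1 core for 5 (10.9%), beside 1.45% and 2.77%. The TATA box was found for 5 (10.9%), below the 12.4% of all windows and above the 7.79% of those of genes in the table. These matches describe letters in the windows and no binding was measured here.

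Between the zygote and the 2-cell stage in WT embryos, genes for soluble transport factors were mostly higher in 2-cell embryos, while scaffold genes of the pore moved both ways. In limma (a linear model with a moderated spread, fitted on log2(FPKM + 1) over all 14392 genes and 8 libraries, Benjamini-Hochberg adjusted p under 0.05), 28 of the 57 genes were higher (49.1%) and 10 were lower (17.5%) in 2-cell embryos. Over all genes, 34.2% were called higher and 15.5% lower. The higher genes included those at the floor in every zygote library, for which only a rise was possible, and the study's filter acted on all genes. The median log2 fold change was 0.80 for the 57 genes and 0.27 for all genes. When libraries were scaled by their median ratio to a common reference, these medians became 0.51 and 0.03. Then 22 genes were called higher and 10 lower, beside 25.2% and 19.0% of all genes. By the study's rule of more than 3-fold between group means, 17 genes were higher and 7 lower, beside 26.0% and 8.78% of all genes. Without 1 of the 4 WT libraries, each in turn, 4 to 6 genes were called lower, and 17 of the higher and 3 of the lower genes were called in every alternative tried. Without any 1 of those WT libraries, fewer of all genes were called lower too. The 17 higher genes called in every alternative included Kpna1, Kpna4, Xpot, Nup62cl, Nup210l and Nupr1, at the floor in every zygote library. For these only a rise was possible, and Nup210l was left out of the alternative with a mean FPKM of at least 5. The share of all genes called in every alternative was not taken. Exact permutation of 2 libraries against 2 cannot reach a p under 0.333, so single genes were tested only within the model.

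All 4 genes of the Ran cycle were higher in WT 2-cell embryos, beside 34.2% of all genes. Rangap1, the activator of the GTPase, was at 1.28 and 1.17 FPKM in zygotes, near the floor, and at 33.6 and 36.2 in 2-cell embryos. Its log2 fold change was 4.01 ± 0.24 (SE), with an adjusted p of 0.000126 in limma. Ran, the small GTPase itself, was at 100.6 and 72.0 in zygotes and at 173.5 and 144.2 in 2-cell embryos (log2 fold change 0.89 ± 0.23, limma adjusted p = 0.0200). The groups did not overlap for either gene, but the call for Ran was lost after median-ratio scaling. Rcc1, the chromatin-bound exchange factor, was at 13.7 and 13.1 in zygotes and at 42.5 and 38.7 in 2-cell embryos. Ranbp1, a co-activator of RANGAP1, was at 39.3 and 33.3 and then at 81.2 and 70.2. The summed level of the 4 genes was 155 and 120 FPKM in WT zygotes and 331 and 289 in WT 2-cell embryos.

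Of 7 exportin genes, 5 were higher at the 2-cell stage and none was lower, beside 34.2% and 15.5% of all genes. Xpo1, which encodes the exportin of proteins with leucine-rich export signals and also of several RNAs, was at 15.4 and 21.0 FPKM in zygotes and at 72.2 and 67.7 in 2-cell embryos (log2 fold change 1.90 ± 0.27, limma adjusted p = 0.00181). Cse1l, whose product returns importin alpha to the cytoplasm, was at 14.5 and 13.4 and then at 48.4 and 34.4. Xpot, the tRNA exportin gene, was listed at the floor in both zygote libraries and was at 7.52 and 7.08 in 2-cell embryos, at least 7.30-fold higher. These 3 calls held under every alternative tried, whereas those of Xpo5 and Xpo7 were lost after median-ratio scaling. For Xpot, at the floor in every zygote library, only a rise was possible. Both genes of the mRNA export receptor were higher too. Nxf1 was at 26.8 and 21.8 FPKM in zygotes and at 70.0 and 87.9 in 2-cell embryos, and its partner Nxt1 was at 109.5 and 100.1 and then at 210.7 and 195.8, although the call for Nxt1 was lost after median-ratio scaling.

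Import receptors of the importin beta family were split, with 6 of 11 genes higher and 2 lower, beside 34.2% and 15.5% of all genes. Tnpo3, which encodes the importer of serine- and arginine-rich splicing factors, changed most among them, from 1.62 and 1.28 FPKM in zygotes to 52.8 and 45.5 in 2-cell embryos (log2 fold change 4.36 ± 0.24, limma adjusted p = 0.000105). Ipo11, an importer of ubiquitin-conjugating enzymes, was at 1.52 and 1.98 and then at 21.1 and 16.8. The other 4 that rose were Ipo4, Ipo5, Ipo7 and Ipo9, with log2 fold changes of 1.11 to 2.72. The call of Ipo7 was lost without any 1 of the 4 WT libraries, that of Ipo4 without either WT 2-cell library, and that of Ipo9 after scaling to equal sums and without any 1 of the 6 libraries outside the cKO 2-cell group. Ipo8, at 147.9 and 165.5 in zygotes and 87.0 and 84.7 in 2-cell embryos, fell by 0.86 on the log2 scale (limma adjusted p = 0.0351), a call lost after scaling to equal sums. Tnpo1, a transportin that carries RNA-binding proteins, fell by 1.52. Kpnb1, the importin beta that pairs with importin alpha, was at 13.7 and 12.8 in zygotes and at 19.9 and 20.6 in 2-cell embryos and did not pass the test (limma adjusted p = 0.283).

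The importin alpha genes, which encode the adaptors between classical nuclear localization signals and importin beta, changed their balance. Kpna1 was listed at the floor in all 4 zygote libraries and reached 126.8 and 119.1 FPKM in WT 2-cell embryos, at least 123-fold higher (log2 fold change 5.95 ± 0.18, limma adjusted p = 7.30e-05). Its zygote values, all at the floor, had no spread, and only a rise was possible. Kpna4 was also at the floor in zygotes and was at 7.06 and 6.21 in WT 2-cell embryos, at least 6.63-fold higher. Kpna6 rose from 5.30 and 6.83 to 19.4 and 13.2. Kpna7, the oocyte and early embryo form, went the other way, from 157.4 and 103.0 in zygotes to 22.6 and 21.5 in 2-cell embryos (log2 fold change -2.48 ± 0.48, limma adjusted p = 0.00630). Its call was lost without either WT 2-cell replicate, at adjusted p of 0.0573 and 0.0610. Kpna2 and Kpna3 did not pass the test, with log2 fold changes of 0.41 ± 0.35 and -0.11 ± 0.22. As shares of the summed importin alpha FPKM, Kpna7 went from 16.7 and 16.1% to 2.42 and 2.17%, and Kpna1 from 0.106 and 0.156%, which is the floor, to 13.5 and 12.0%, while Kpna2 stayed the most abundant at 62.0 to 72.9%.

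**Figure D2:**
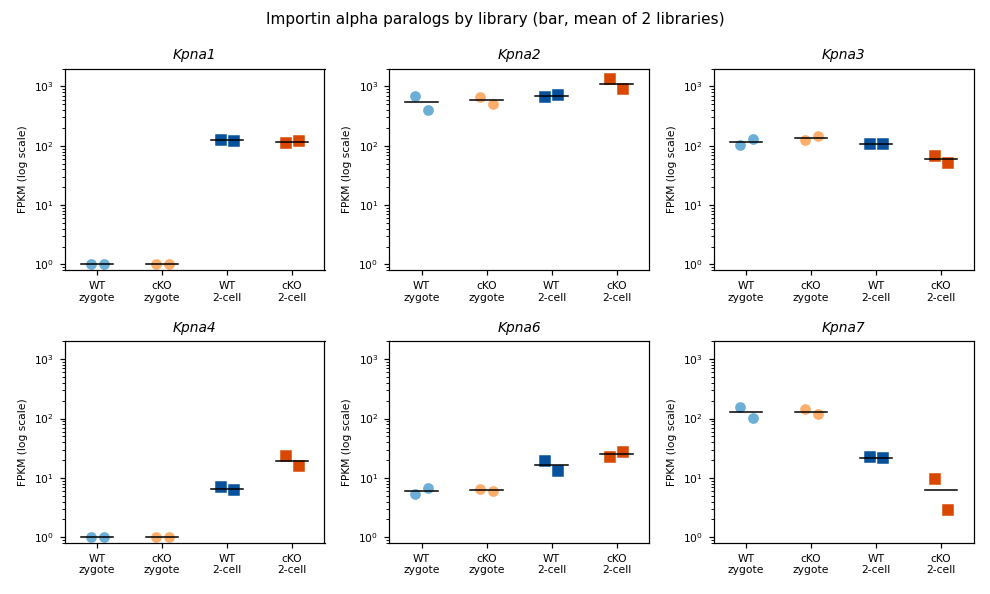
FPKM (log scale) of the 6 importin alpha genes in each of the 8 libraries, with points for libraries and bars for the mean of the 2 libraries of a group. Kpna1 and Kpna4 lie at the floor of 1 in all zygote libraries, and Kpna7 goes from 103.0 to 157.4 in zygotes to 22.6 and 21.5 in WT and 9.50 and 2.89 in cKO 2-cell embryos.

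The largest falls among the 57 genes, as deposited, were those of the nucleoporin genes Nup37 and Nup85. In the Y complex, the outer ring of the pore, 3 of 7 genes were lower (42.9%) and 2 higher (28.6%). Of all genes, 15.5% were called lower and 34.2% higher. Nup37 was at 357.0 and 404.1 FPKM in zygotes and at 41.4 and 32.8 in 2-cell embryos (log2 fold change -3.33 ± 0.22, limma adjusted p = 0.000155), and Nup85 was at 147.5 and 114.7 and then at 19.8 and 20.9 (-2.62 ± 0.19, limma adjusted p = 0.000203). NUP37 is a peripheral and NUP85 an arm subunit of the complex. Nup107, which encodes a stem subunit, fell by 0.88. Nup43 and Nup133 rose, the latter from the floor in both libraries to 4.88 and 5.16, but both calls were lost after median-ratio scaling. Summed over the 7 genes, the Y complex was at 699 and 694 FPKM in WT zygotes and at 295 and 294 in WT 2-cell embryos. In the inner ring, Nup93 and Nup35 fell by 1.62 and 1.25 on the log2 scale, while Nup205 rose by 1.49, and all 3 calls were lost without either WT zygote library. In the central channel, Nup54 fell by 1.72, from 86.1 and 83.7 to 32.2 and 19.6, a call also lost without either WT zygote library, while its partner gene Nupl1, which encodes NUP58, rose by 1.24. The third partner, Nup62, was at 77.0 and 61.6 and then at 98.4 and 99.0 and did not pass the test (limma adjusted p = 0.120).

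The remaining pore genes included those of the cytoplasmic face, the basket and the membrane ring. Ranbp2, the large filament protein that also holds SUMO-modified RANGAP1, rose from 2.27 and 3.31 FPKM to 15.8 and 16.4 (log2 fold change 2.19 ± 0.29, limma adjusted p = 0.00147). Nup88, a partner of NUP214 on the cytoplasmic side, fell from 214.5 and 163.5 to 56.7 and 52.1 (-1.77 ± 0.29, limma adjusted p = 0.00357). The other 4 genes of the cytoplasmic face and all 3 basket genes were not called. Nup98, a mobile nucleoporin found on both sides of the pore, was at 17.5 and 22.7 and then at 25.6 and 35.8. Of the basket genes, Nup153 was at 32.4 and 45.5 and then at 22.8 and 17.2, and Tpr at 17.4 and 20.9 and then at 30.9 and 43.4, with limma adjusted p of 0.133 and 0.317. The paralogs Nup62cl and Nup210l were at the floor in zygotes and rose to 9.02 and 22.1, and to 2.90 and 2.78, at least 15.6-fold and 2.84-fold higher. Nupr1, the gene matched by its letters alone, was also at the floor and reached 45.4 and 47.9.

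In zygotes, no pore or transport gene passed the test between cKO and WT. limma called 0 of the 57 genes in either direction, beside 0.0208% of all genes called higher and 0% called lower. By the 3-fold rule 0 genes passed as well, beside 0.104% and 0.0486%. At an unadjusted p under 0.05, limma gave 2 of the 57 genes (3.51%) and 408 of all genes (2.83%), so the share of the 57 was near that of all genes. The 2 genes are given as values. Ran was at 100.6 and 72.0 FPKM in WT and at 49.2 and 57.9 in cKO zygotes, and Ranbp1 was at 39.3 and 33.3 in WT and at 54.2 and 53.8 in cKO zygotes. Libraries did not overlap for either gene, and the log2 fold changes of -0.66 ± 0.23 and 0.56 ± 0.21 had limma adjusted p of 1.00. The median log2 fold change of the 57 genes was 0.00. For Kpna2, the most abundant of them, the 95% interval of the log2 fold change was -0.71 to 1.01, and for Xpo1 it was -0.54 to 0.75. The spread behind these intervals was shared over all 8 libraries, including the cKO 2-cell libraries. They therefore do not measure the spread of the zygote libraries alone, and differences within them were not told apart from none.

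At the 2-cell stage, RNA of Ran, Ranbp1, Xpo1 and some scaffold genes was higher in cKO than in WT embryos, and RNA of Kpna7, Nup62, Nup214 and Ipo8 was lower. With the spread shared over all 8 libraries, limma called 11 of the 57 genes higher (19.3%) and 6 lower (10.5%), beside 6.16% and 24.6% of all genes. The higher genes were Cse1l, Kpna4, Nup107, Nup35, Nup43, Ran, Ranbp1, Ranbp2, Tnpo3, Xpo1 and Xpot, and the lower ones Ipo8, Kpna3, Kpna7, Nup214, Nup62 and Nupl1. The libraries of the groups did not overlap for any of these 17 genes. The genes were selected on these same libraries, so this adds no support to the calls. None of the calls held when the spread came from the 4 libraries of the 2-cell stage alone. There 11 and 6 of the 57 genes had an unadjusted p under 0.05 in limma, and 0 of all genes were called. None held either when each group had its own spread, where 6 and 6 of the 57 had an unadjusted p under 0.05 in limma. In that setting 0.834% and 5.93% of all genes were called. The share of all genes at an unadjusted p under 0.05 was not taken for either setting. The median log2 fold change was -0.01 for the 57 genes and -0.30 for all genes, with quartiles of -0.51 and 0.70 against -0.91 and 0.11. This gap rested on cKO 2-cell replicate 1, since the medians were -0.32 and -0.35 without it, against 0.35 and -0.24 without replicate 2. Without 1 of the 6 libraries outside the cKO 2-cell group, each in turn, fewer of the 57 genes and fewer of all genes were called higher. Without either WT 2-cell library, fewer of both were called lower. Scaling moved both medians, to 0.46 and 0.00 by median ratio and to -0.24 and -0.43 by equal sums. By median ratio 16 genes were called higher and 3 lower, beside 9.98% and 12.1% of all genes. By equal sums 6 were called higher and 9 lower, beside 3.83% and 28.2% of all genes. The genes called as deposited and under both scalings were Cse1l, Kpna4, Nup35, Nup43, Ran and Ranbp1 as higher and Ipo8, Nup214 and Nup62 as lower. No called gene changed direction under either scaling. The other alternatives could not change a direction, since the groups did not overlap. The 3-fold rule passed 1 gene in each direction, beside 2.84% and 13.5% of all genes.

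**Figure D3:**
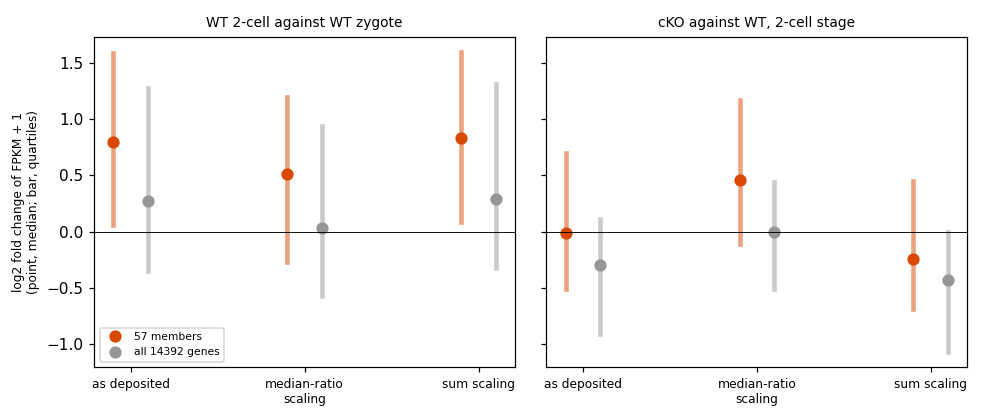
Median (point) and quartiles (bar) of the log2 fold change of FPKM + 1 for the 57 pore and transport genes (orange) and all 14392 genes (grey), as deposited and under both scalings, for stage in WT and genotype at the 2-cell stage. The genotype medians as deposited are -0.01 and -0.30, and the median of the 57 genes lies above that of all genes under each scaling, with both cKO 2-cell libraries included.

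The Ran gene had close replicates and no overlap at the 2-cell stage. It was at 173.5 and 144.2 FPKM in WT and at 415.6 and 411.3 in cKO embryos (log2 fold change 1.38 ± 0.23, limma adjusted p = 0.00828). Ranbp1 was at 81.2 and 70.2 in WT and at 263.2 and 201.4 in cKO embryos, 3.07-fold higher by the means and the gene past the 3-fold rule (log2 fold change 1.60 ± 0.21, limma adjusted p = 0.00429). The start-site window of Ran held 3 GC boxes and that of Ranbp1 held 1. This motif was found for 67.4% of the genes with a window, beside 53.0% of the single windows of genes in the table. The first share counts a gene when any of its windows held the motif, so the 2 shares are not like measures. Among called genes with a window, it was found for 6 of 8 higher and 2 of 5 lower ones, and a link with the RNA was not tested. The regulators on either side of the Ran cycle were not higher. Rangap1 was at 33.6 and 36.2 in WT and at 26.6 and 19.0 in cKO embryos, and Rcc1 at 42.5 and 38.7 against 37.2 and 27.0, with limma adjusted p of 0.104 and 0.266. Summed over the 4 genes, the Ran cycle was at 331 and 289 FPKM in WT and at 743 and 659 in cKO 2-cell embryos. The excess of Ran was not seen in zygotes, and its genotype effect differed between stages by 2.04 ± 0.33 on the log2 scale (limma adjusted p = 0.0192 for the interaction). The interaction for Ranbp1 was 1.03 ± 0.30, with a limma adjusted p of 0.0738.

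**Figure D4:**
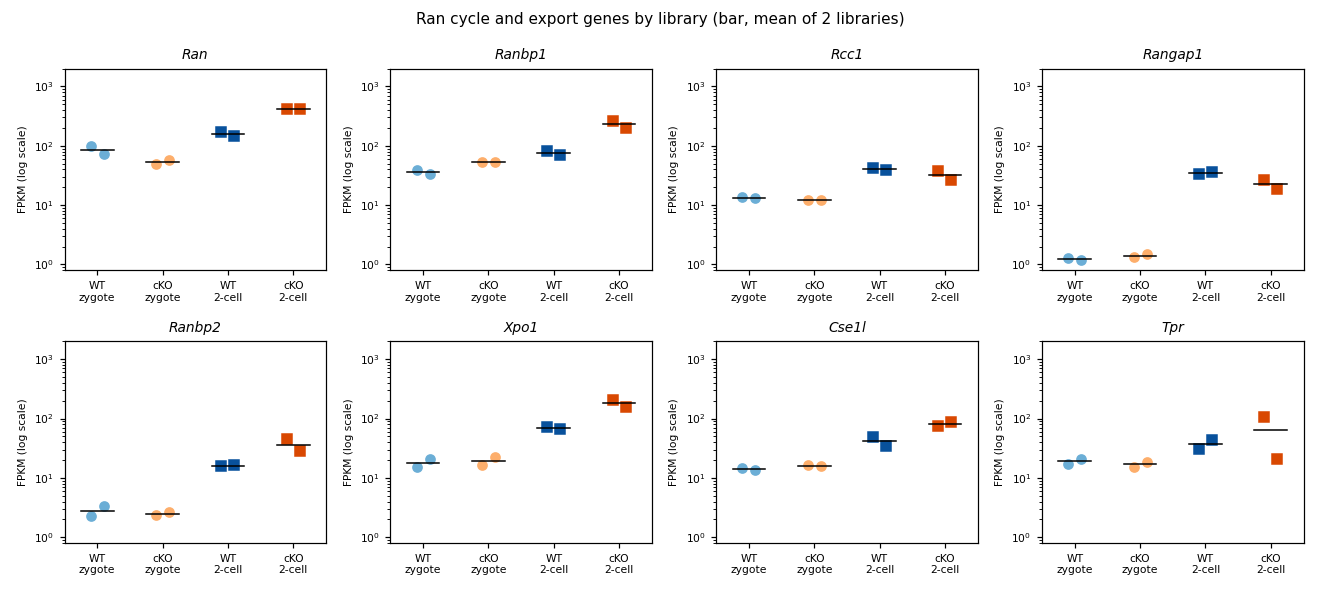
FPKM (log scale) of 4 Ran cycle genes and of Ranbp2, Xpo1, Cse1l and Tpr in each of the 8 libraries, with bars for the mean of the 2 libraries of a group. Ran, Ranbp1, Xpo1, Cse1l and Ranbp2 are higher in both cKO 2-cell libraries than in both WT 2-cell libraries, Rangap1 and Rcc1 are not, and the cKO 2-cell libraries of Tpr lie at 105.6 and 20.8.

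Exportin genes were 3 of 7 higher and none lower in cKO 2-cell embryos, beside 6.16% and 24.6% of all genes. Xpo1 was at 72.2 and 67.7 FPKM in WT and at 206.9 and 154.4 in cKO embryos (log2 fold change 1.34 ± 0.27, limma adjusted p = 0.0139), and its share of the summed exportin FPKM was 42.9 and 44.5% in WT and 63.1 and 56.6% in cKO embryos. Cse1l was at 48.4 and 34.4 in WT and at 75.1 and 88.0 in cKO embryos, and Xpot at 7.52 and 7.08 against 14.8 and 11.5. The calls of Xpo1 and Xpot were lost after scaling to equal sums. The other 4 exportin genes were not called, with Xpo5, the exportin of microRNA precursors, at 5.32 and 4.94 in WT against 3.33 and 3.51, and Xpo6, the exportin of actin, at 19.8 and 24.4 against 16.3 and 1.41. The mRNA export genes were not called, with Nxf1 at 70.0 and 87.9 in WT and 96.8 and 62.7 in cKO embryos, and Nxt1 at 210.7 and 195.8 against 291.7 and 373.6 (limma adjusted p = 0.0519).

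Among import receptors, the importin alpha genes again moved in opposite directions. Kpna4 was at 7.06 and 6.21 FPKM in WT and at 23.1 and 16.0 in cKO embryos (log2 fold change 1.41 ± 0.23, limma adjusted p = 0.00807). Kpna7 was at 22.6 and 21.5 in WT and at 9.50 and 2.89 in cKO embryos, 3.56-fold lower by the means (log2 fold change -1.85 ± 0.48, limma adjusted p = 0.0313), a call lost after median-ratio scaling and without any 1 of the 6 libraries outside the cKO 2-cell group. Kpna3 was at 105.7 and 109.0 in WT and at 67.1 and 52.2 in cKO embryos, and its call was also lost after median-ratio scaling. Kpna2 was at 655.3 and 722.0 against 1327.6 and 903.7 and did not pass the test (limma adjusted p = 0.207), while Kpna1 was at 126.8 and 119.1 against 113.5 and 120.9. Of 11 importin beta family genes, 1 was higher and 1 lower (9.09% each), beside 6.16% and 24.6% of all genes. Ipo8, a receptor for SMAD and Argonaute proteins, was at 87.0 and 84.7 in WT and at 39.9 and 24.0 in cKO embryos (log2 fold change -1.44 ± 0.26, limma adjusted p = 0.0106), and Tnpo3 was at 52.8 and 45.5 against 101.4 and 76.6 (limma adjusted p = 0.0433), a call lost after scaling to equal sums. Kpnb1 was at 19.9 and 20.6 in WT and at 32.9 and 12.8 in cKO embryos, so that its cKO libraries lay on either side of WT.

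**Figure D5:**
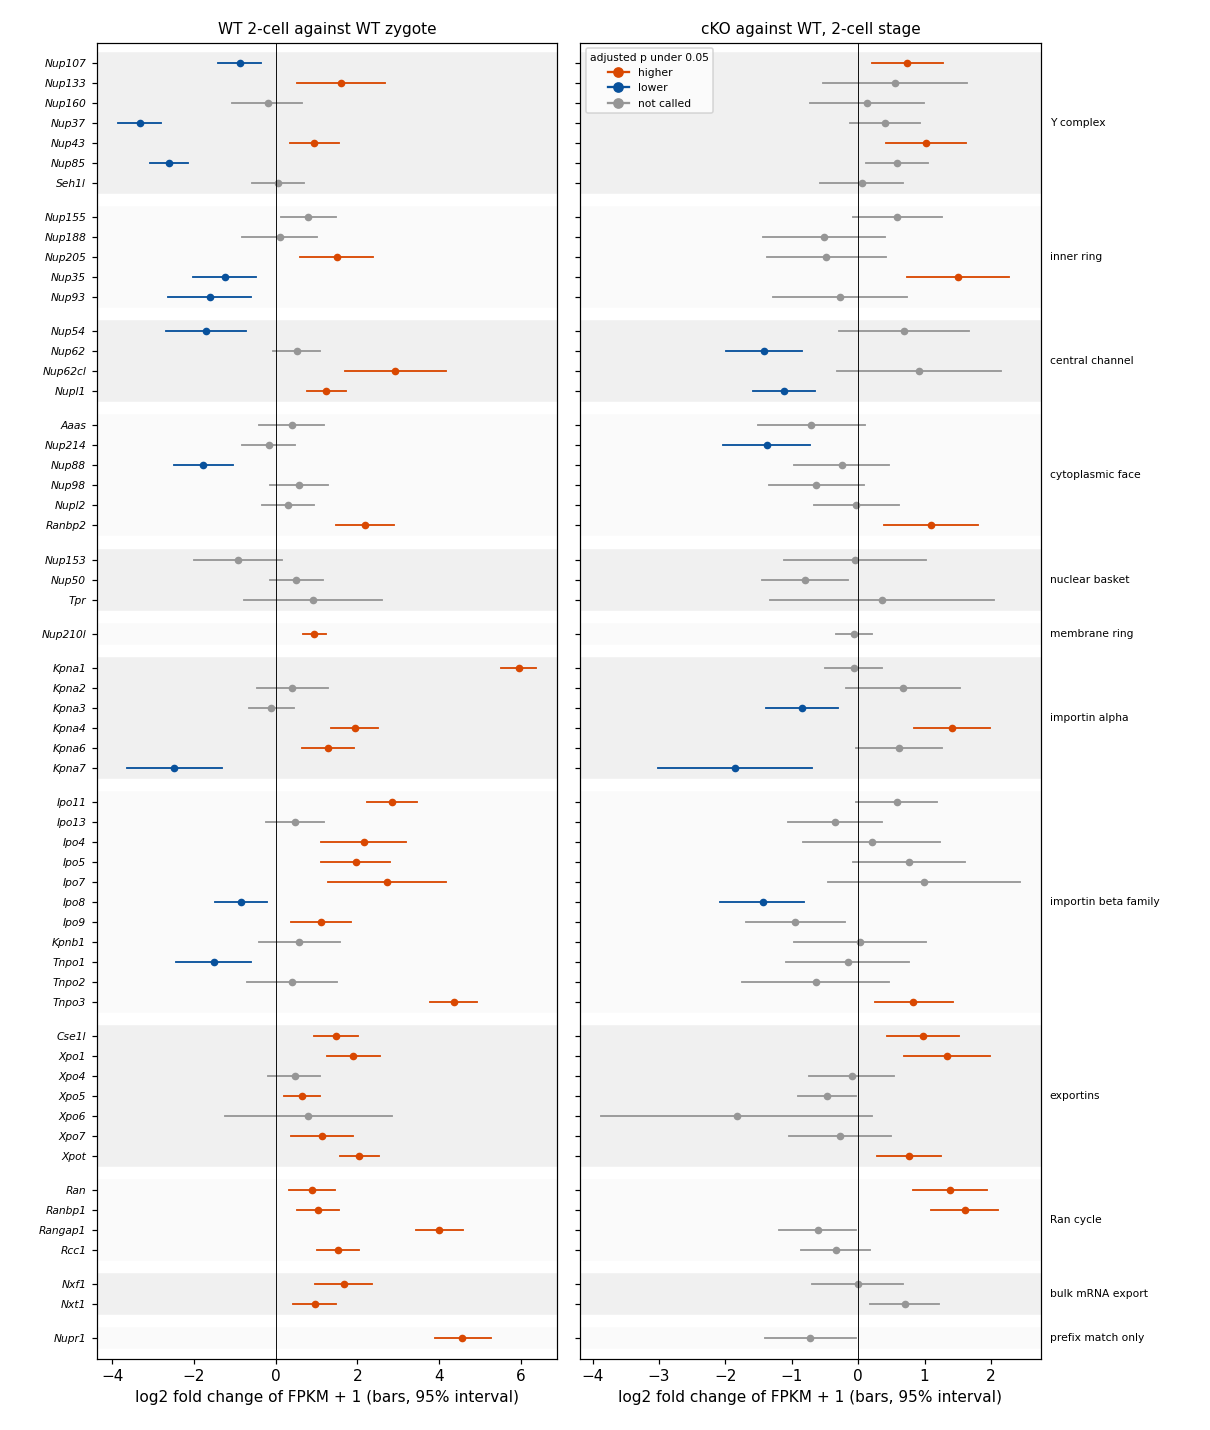
log2 fold change of FPKM + 1 with its 95% interval for each of the 57 genes by role, at the left for WT 2-cell embryos against WT zygotes and at the right for cKO against WT at the 2-cell stage, coloured by limma call at an adjusted p under 0.05 (orange higher, blue lower, grey not called). At the left 28 genes are called higher and 10 lower, at the right 11 and 6, and intervals of Xpo6, Tpr and Ipo7 are wide.

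Called nucleoporin genes included both higher and lower ones in cKO 2-cell embryos. Of 7 Y-complex genes, Nup107 and Nup43 passed the test as higher and none as lower, beside 6.16% and 24.6% of all genes. The log2 fold changes over the 7 were 0.05 to 1.02 as deposited. The call of Nup107 was lost after scaling to equal sums. Nup43 was at 147.2 and 133.5 FPKM in WT and at 243.3 and 334.0 in cKO embryos (limma adjusted p = 0.0258). In the inner ring, Nup35 was at 122.8 and 87.4 in WT and at 222.6 and 391.2 in cKO embryos (log2 fold change 1.50 ± 0.32, limma adjusted p = 0.0166), and the other 4 genes were not called. Of 4 central channel genes, Nup62 and Nupl1, whose products assemble with NUP54, were lower, beside 24.6% of all genes. Nup62 was at 98.4 and 99.0 in WT and at 43.9 and 30.0 in cKO embryos (log2 fold change -1.42 ± 0.24, limma adjusted p = 0.00814), and Nupl1 was at 31.2 and 33.0 against 12.6 and 16.0 (-1.12 ± 0.19, limma adjusted p = 0.00933), while the other channel genes were not called, with Nup54 at 32.2 and 19.6 against 60.6 and 27.8 and Nup62cl at 9.02 and 22.1 against 18.5 and 41.2. The call for Nupl1 was lost after median-ratio scaling, as was its interaction with stage of -1.32 ± 0.28 (limma adjusted p = 0.0352 as deposited). On the cytoplasmic face, Nup214 was at 45.7 and 38.9 in WT and at 20.0 and 12.1 in cKO embryos (-1.38 ± 0.27, limma adjusted p = 0.0130), and Ranbp2 was at 15.8 and 16.4 against 44.6 and 28.3 (1.10 ± 0.29, limma adjusted p = 0.0336), a call lost after scaling to equal sums. Nup98, Nup153 and Tpr were not called, with cKO values of 23.6 and 15.7, 30.4 and 11.9, and 105.6 and 20.8.

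The stage comparison in WT and the genotype comparison at the 2-cell stage share the WT 2-cell libraries, so a value that is off in them moves both, and the levels are therefore set side by side over all groups. Mean FPKM of Nup35 was 249 in WT zygotes and, at the 2-cell stage, 105 in WT and 307 in cKO, and that of Ran 86.3, 159 and 413. Mean FPKM of Kpna7 was 130, 22.0 and 6.20, and that of Nup62 69.3, 98.7 and 36.9. In the tested difference of genotype effects between stages, 2 of the 57 genes (Ran and Kpna4) were called as more positive at the 2-cell stage and 1 (Nupl1) as more negative, beside 1.58% and 10.2% of all genes. For Kpna4 the difference was 1.41 ± 0.33 (limma adjusted p = 0.0461). Kpna4 was at the floor in every zygote library, so this value repeats its 2-cell log2 fold change and cannot show a difference between stages. Without 1 of the 4 zygote libraries, each in turn, 0 genes were called in either direction, with 6 or 7 more positive and 4 to 7 more negative at an unadjusted p under 0.05 in limma, whereas without cKO 2-cell replicate 1 or 2 the counts were 6 and 12, and 9 and 5. In the former settings 0 to 2 of all genes were called, and in the latter 7.64% and 24.4%, and 6.71% and 18.2%, of all genes were.

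The cKO 2-cell replicates disagreed for many of these genes. The spread was similar over the whole table, with a median absolute log2 ratio between replicates of 0.588 for the 57 genes and 0.552 for all genes. A difference of more than 3-fold was found for 6 of the 57 genes (10.5%) and for 1912 of all genes (13.3%). A difference of more than 2-fold was found for 17 of the 57 genes in cKO 2-cell embryos (29.8%, beside 30.4% of all genes), against 1 in WT zygotes, 0 in cKO zygotes and 1 in WT at the 2-cell stage. Of the 17, 16 were higher in replicate 1, led by Xpo6 (11.5-fold), Tpr (5.07-fold), the transportin gene Tnpo2 (4.42-fold), Ipo7 (3.71-fold), Kpna7 (3.29-fold) and Nup133 (3.13-fold). The paralog Nup62cl was 2.22-fold higher in replicate 2. The longest annotated transcripts of the 16 genes had a median of 5284 nucleotides, against 4167 for all 57. Across genes, which are not independent, the Spearman coefficient between the log2 ratio of replicate 1 to replicate 2 and transcript length was 0.389 over the 57 genes and 0.252 over 13343 genes with a length in cKO 2-cell embryos. It was -0.538 and -0.239 in WT zygotes, -0.241 and -0.183 in cKO zygotes, and -0.0545 and -0.120 in WT 2-cell embryos. Its sign depends on which library is numbered 1, and it does not measure the size of the ratios. The median absolute log2 ratio of the 57 genes was 0.214 in WT zygotes, 0.143 in cKO zygotes and 0.140 in WT 2-cell embryos. The part of length in the disagreement was not tested. The coefficient between the genotype log2 fold change at the 2-cell stage and length was -0.104 and -0.0974. Without cKO 2-cell replicate 1, 10 of the 57 genes were called higher and 16 lower, beside 11.9% and 33.1% of all genes, and without replicate 2, 18 higher and 9 lower, beside 11.5% and 26.0%. Libraries of this group also held less of the RNA that marks genome activation, with 9 of 10 listed 2-cell activation markers summing to 218 to 336 FPKM, against 675 to 981 in WT 2-cell embryos and 10.4 to 14.5 in zygotes. The part of this difference in the results above was not tested.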

How the data were processed

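RNA-seq was made by Smart-seq2, which amplifies full-length cDNA, from 8 pools of 10 embryos, with zygotes collected 28 h after hCG. Per the study's methods and processing notes, the authors trimmed reads to 50 bp, aligned them to mm9 with TopHat2 2.1.1 and deposited FPKM from Cufflinks 2.2.1, while the gene annotation is not given in the sources used here. FPKM holds no counts, so depth and counting error are unknown, and a rise in some genes lowers the FPKM of others. The 7 ChIP samples of the series were not used here.

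Groups were taken from the sample labels. limma 3.58.1 (R 4.3.3) was fitted with a mean-variance trend on log2(FPKM + 1) of all 14392 genes in 8 libraries, leaving 4 residual degrees of freedom, with p-values adjusted by Benjamini-Hochberg over all genes, and was tested on simulated data. The fold rule compared means of 2 libraries at 3-fold. Values per library were given for the 6 highest and 6 lowest called genes of each contrast without overlap (3 and 3 for the interaction), those past the fold rule, and 13 core genes; others served to complete a role. Genes and lists were chosen with earlier results of these data known.

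Alternatives were no pseudocount, median-ratio or equal-sum scaling, a mean FPKM of at least 5, the libraries of the 2 groups alone, group variances, a replicate block and leaving out each library. Copies were searched on mm9 with minimap2 2.31, gene positions and exon overlaps came from GENCODE M1, and start-site windows from RefSeq on GRCm38.p6. Tables and plots were made with pandas 2.3.3, numpy 2.4.6 and matplotlib 3.10.9 under Python 3.11.15.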

Additional observations from a re-analysis of the deposited data

Results flagged for a closer look

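The interaction term in limma, with Benjamini-Hochberg adjustment over all genes, was called for 3 of the 57 genes. Of these, 2 were more positive at the 2-cell stage and 1 more negative. These are 3.51% and 1.75% of the 57, beside 1.58% and 10.2% of all genes. For Ran, whose log2 fold change was 1.38 at the 2-cell stage and -0.66 in zygotes, the difference was 2.04 (limma adjusted p = 0.0192). This call was lost with group variances, at an adjusted p of 0.0963, and without any 1 of the zygote libraries, at 0.0676 to 0.107. For Kpna4, which was at the floor in all zygote libraries, the difference was 1.41 (limma adjusted p = 0.0461). The floor fixed its zygote log2 fold change at 0.00, so the difference only repeats its 2-cell log2 fold change of 1.41. It cannot show that the genotype effect of Kpna4 differed between stages. Its call was lost without the pseudocount (0.0540), after scaling to equal sums (0.129), with group variances (0.0624), with the replicate block (0.0626) and without any 1 of the 6 libraries outside the cKO 2-cell group (0.0636 to 0.176). For Nupl1 the difference was -1.32 (limma adjusted p = 0.0352), with a call lost after median-ratio scaling (0.182), with group variances (0.0657), with the replicate block (0.0560) and without any 1 of the zygote libraries (0.112 to 0.142).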

How the results depend on the processing

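Counts are of the 57 genes, higher then lower. In limma at the 2-cell stage (11 and 6), equal-sum scaling gave 6 higher, beside 3.83% of all genes, and median-ratio scaling 3 lower, beside 12.1%. The 2 groups alone gave 0 and 0, beside 0% and 0% of all genes, and group variances 0 and 0, beside 0.834% and 5.93%. For the interaction (2 and 1), no pseudocount gave 1 higher, beside 1.40% of all genes. Median-ratio scaling gave 7 and 0, beside 3.12% and 4.57%, and group variances 0 and 0, beside 0.605% and 4.55%. By fold at the 2-cell stage (1 and 1), a 2-fold threshold gave 8 and 6, beside 8.75% and 28.6% of all genes. A 3-fold gap between every pair of libraries gave 0 and 0, beside 0.771% and 6.82%. Median-ratio scaling gave 7 and 0, beside 6.90% and 6.29%, and equal sums 0 and 4, beside 1.71% and 16.8%. In the stage comparison, the gap between every pair of libraries left 3 of 7 lower, beside 5.80% of all genes. Leaving out 1 library gave 19 to 33 and 4 to 11 for stage in limma, 4 to 18 and 2 to 16 for genotype at the 2-cell stage, 0 to 9 and 0 to 12 for the interaction, and 1 to 3 and 0 to 6 by fold at the 2-cell stage. The zygote counts were 0 in every alternative run. Beyond the construction of each alternative, the cause was not tested.

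With the replicate block, limma gave 28 and 9 for stage, beside 33.6% and 15.2% of all genes. It gave 9 and 5 for genotype at the 2-cell stage, beside 5.42% and 23.3%, and 1 and 0 for the interaction, beside 0.813% and 7.07%. The fold rule gave 2 lower at the 2-cell stage, beside 14.9%. Same-numbered deviations correlated at 0.497 between WT and cKO zygotes and at -0.239 between WT and cKO 2-cell embryos, and the labels do not say what a number marks, so with 2 numbers no pairing was assumed. The interaction has no fit with 2 groups alone. Of the alternative values for single named genes, 315 kept direction and call, 87 lost the call and none changed direction. Most of these alternatives could not change a direction, since they kept the group means or left out 1 library of groups without overlap. Unknown depth leaves the precision of genes near the floor unknown.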

Other observations

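Of 32 further pore and transport genes outside the symbol rule, 28 were in the table. In limma with Benjamini-Hochberg adjustment, 10 were higher and 8 lower in WT 2-cell embryos than in WT zygotes (35.7% and 28.6%, beside 34.2% and 15.5% of all genes), so the higher share was near that of all genes. Ncbp1, the large subunit of the nuclear cap-binding complex, was at 1.12 and 1.06 FPKM in WT zygotes and at 67.0 and 65.2 in WT 2-cell embryos, a log2 fold change of 5.00. Alyref, an mRNA export adaptor gene, was at 8.25 and 6.35 and then at 62.0 and 64.2, whereas Ddx19a, which encodes a helicase of mRNA release at the pore, fell from 114 and 127 to 19.7 and 15.4. At the 2-cell stage, 5 were higher in cKO (Snupn, Phax, Ncbp1, Ncbp2 and Alyref) and 4 lower (Tmem48, Gle1, Ddx19a and Nutf2), or 17.9% and 14.3%, beside 6.16% and 24.6% of all genes. Phax, an export adaptor gene of small nuclear RNAs, was at 32.8 and 19.4 in WT and at 71.7 and 65.3 in cKO embryos, and Snupn, which encodes the import adaptor of the same RNAs, at 126 and 130 against 320 and 283. Nutf2, the importer of Ran itself, was at 3.54 and 3.52 in WT and at 1.33 and 1.00, the floor, in cKO embryos.

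Of 13 nuclear lamina and envelope genes, 10 were in the table. Between the zygote and the 2-cell stage in WT, 7 rose and 1 fell, beside 34.2% and 15.5% of all genes. The 7 included Lemd3 and Sun2, at the floor in every zygote library, for which only a rise was possible. Lemd3 was at 9.49 and 6.65 FPKM in WT 2-cell embryos, and Sun2 at 1.69 and 1.51. Lmnb1, which encodes lamin B1, was at 2.84 and 3.08 FPKM in zygotes and at 16.1 and 11.2 in 2-cell embryos, and Lbr, the lamin B receptor gene, at 7.53 and 7.40 and then at 32.5 and 33.4. Banf1, which encodes a chromatin-bridging protein of envelope assembly, fell from 627 and 408 to 152 and 129. Between cKO and WT 2-cell embryos, 0 were higher and 1, Sun2, was lower, at the floor in both cKO libraries against 1.69 and 1.51 in WT, beside 6.16% and 24.6% of all genes called.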
